A study of Homo sapiens with 6 samples.

Results

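Genes of lipid droplet coating, triglyceride breakdown and triglyceride synthesis were examined in cells labelled HCT116, a human colorectal carcinoma line, 48 h after an siRNA against CPT2 (CPT2 knockdown, n = 3 libraries) or a negative control siRNA (NC, n = 3 libraries). The 10 genes were picked by name from the 24154 genes of the count table, namely PLIN2, PLIN3, PNPLA2, LIPE, MGLL, ABHD5, G0S2, HILPDA, DGAT1 and DGAT2. All 10 were found and 9 had enough counts to be tested. No label ties the 3 replicates of a group to separate cultures, so the p-values reflect spread from library to library, which may be technical. The comparison addresses how transcript levels differ when CPT2, the inner mitochondrial membrane enzyme that hands long-chain acyl groups on to beta-oxidation, is targeted.

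Cells store surplus fatty acids as triglycerides in lipid droplets, whose surface is covered by perilipin proteins. Droplet triglycerides are cut stepwise by PNPLA2 (adipose triglyceride lipase), LIPE (hormone-sensitive lipase) and MGLL (monoacylglycerol lipase). ABHD5 (CGI-58) activates PNPLA2, whereas the small proteins G0S2 and HILPDA inhibit it. DGAT1 and DGAT2 are unrelated enzymes that both add the last acyl chain to diacylglycerol. Fatty acids freed from droplets can reach mitochondria through the carnitine shuttle, of which CPT2 is a part.

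PNPLA2, LIPE and both DGAT genes had higher CPM (read counts relative to library sizes scaled by TMM) in every CPT2 knockdown library than in any NC library, and ABHD5 had lower ones. For DGAT2 the margin was within counting error and was lost in FPKM. Groups did not overlap, then, for 4 members in the higher and 1 in the lower direction, as for 12.2% of all tested genes in each direction. DGAT1 was 1.53-fold, PNPLA2 1.48-fold, LIPE 1.40-fold and DGAT2 1.33-fold its NC level in the fit, and ABHD5 was 0.739-fold. None of these 5 differences passed adjustment over the 15302 genes tested (edgeR quasi-likelihood test, Benjamini-Hochberg adjusted p = 0.338 for PNPLA2, LIPE and DGAT1 and 0.351 for DGAT2 and ABHD5). The count of members called at an adjusted p of 0.05 was therefore 0 of 9, where 2 of all genes tested, or 0.0131%, were called. DESeq2 also called 0 of 9 (0.111% of all genes), and limma-voom with sample quality weights called PNPLA2, LIPE and DGAT1 (19.0% of all genes). At an unadjusted p of 0.05 it was 3 of 9, all higher in the knockdown, against 14.5% of all genes in either direction and 9.18% higher. Without NC replicate 2 it was 0 of 9, against 3.23% of all genes in either direction. PLIN2, PLIN3, MGLL and HILPDA overlapped between the groups, and G0S2 was at the limit of detection.

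Median fold changes over all tested genes differed by GC content, from -0.41 in the lowest decile to 0.48 in the highest on the log2 scale, and the part of GC content in any member's difference was not tested beyond the offsets given below. The longest transcripts of PNPLA2 and DGAT1 had 64.5% and 63.2% GC, which placed them in the GC-richest decile of tested genes. ABHD5, at 37.5%, was in the GC-poorest decile, and DGAT2, at 52.2%, and PLIN2, at 48.9%, were in the middle. The first 180 coding bases of 3 members are shown, with PNPLA2 richest in GC and ABHD5 closer to PLIN2 than over the longest transcripts. They are taken from the longest complete coding sequence in GENCODE 29 on GRCh38 and written 5′ to 3′, with the start codon in capitals.
PNPLA2: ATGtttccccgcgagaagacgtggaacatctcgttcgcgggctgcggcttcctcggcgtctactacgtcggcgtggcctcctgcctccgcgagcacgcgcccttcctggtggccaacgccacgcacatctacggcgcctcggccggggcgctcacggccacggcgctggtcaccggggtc
PLIN2: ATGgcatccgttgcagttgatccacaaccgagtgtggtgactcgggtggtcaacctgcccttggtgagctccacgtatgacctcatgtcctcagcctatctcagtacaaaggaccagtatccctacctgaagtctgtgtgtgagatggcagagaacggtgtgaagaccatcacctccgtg
ABHD5: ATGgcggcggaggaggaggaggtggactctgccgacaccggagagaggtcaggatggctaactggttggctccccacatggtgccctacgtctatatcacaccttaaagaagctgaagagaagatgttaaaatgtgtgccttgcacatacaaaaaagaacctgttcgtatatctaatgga
GC content was 70.6% in the PNPLA2 stretch, 53.9% in that of PLIN2 and 49.4% in that of ABHD5. Over whole coding sequences it was 66.3% for PNPLA2, 50.0% for PLIN2 and 45.5% for ABHD5. At the last position of codons it was 87.7% for PNPLA2 and 40.6% for ABHD5.

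Libraries held 28353790 to 29449380 counts. CPT2 itself averaged 19.9 ± 1.23 CPM in CPT2 knockdown and 27.1 ± 3.01 CPM in NC libraries (SD, n = 3 each), without overlap and without passing over all genes (edgeR, adjusted p = 0.338). Its log2 fold change was -0.44, and genes in its GC decile, the lowest, had a median of -0.41. By library, CPT2 stood at -0.48, -0.35 and -0.51 in knockdown replicates 1, 2 and 3, on the log2 scale against the NC mean. It stood at -0.20, 0.08 and 0.10 in NC replicates 1, 2 and 3. Whether CPT2 fell more than genes of like GC content was not tested. Among markers of colorectal epithelium, KRT8 and KRT18 were abundant, but EPCAM averaged 3.98 CPM in CPT2 knockdown and 2.93 CPM in NC libraries, CDH1 1.77 CPM in knockdown and 2.42 CPM in NC libraries, KRT19 0.744 CPM in knockdown and 0.302 CPM in NC libraries, and VIL1 was near 0. Thus 4 of 6 epithelial markers were low against the HCT116 label, and the identity of the cells was not tested. None of 5 adipocyte and 3 hepatocyte markers had enough counts to be tested, and the adipocyte markers summed to 0.103 to 0.500 CPM per knockdown library and 0 to 0.351 CPM per NC library. The 4 macrophage markers summed to 30.9 to 33.1 CPM per knockdown library and 22.9 to 23.7 CPM per NC library, most of it CD68, a lysosomal protein gene, at 29.01 CPM in knockdown and 20.8 CPM in NC libraries, with the leukocyte marker PTPRC near 0. CSF1R, another macrophage marker, had 2.23 CPM in knockdown and 2.22 CPM in NC libraries. CD14, the last of these markers, had 0.589 CPM in knockdown and 0.172 CPM in NC libraries, with too few counts to be tested. Of 4 fibroblast markers, COL1A1 had 128, 80.7 and 76.2 CPM in knockdown replicates 1, 2 and 3, against 67.4, 57.0 and 76.7 CPM in NC replicates 1, 2 and 3, and COL1A2, DCN and THY1 were each under 0.5 CPM in every library. Mitochondrially encoded transcripts took 17.0%, 15.6% and 8.99% of counts in knockdown replicates 1, 2 and 3, against at most 10.8% in any NC library. CPT2 knockdown replicate 1 held the highest or the lowest value of its group for all 10 droplet genes. The share of all genes for which it did so was not taken. Values without that replicate are given below where they move a result. The 7 measured transcripts of a list of nuclear-retained RNAs, a sign of RNA quality, had a median of -0.96, -0.10 and -0.32 on the log2 scale in knockdown replicates 1, 2 and 3, and -0.12, 0.21 and -0.09 in NC replicates 1, 2 and 3, each against the NC mean. OGT and NKTR had the smallest p of that list, with log2 fold changes of -0.52 and -0.56. With GC and length offsets they had -0.16 and -0.04. The list had a median GC content of 36.5%, and its median log2 fold change was -0.50 as counted and -0.04 with offsets. MALAT1 and NEAT1, also on that list, were not found among the genes counted. The part of these markers, shares and nuclear RNAs in the results below was not tested.

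Measured per transcript length, the droplet genes spanned over 2 orders of magnitude. In the authors' FPKM, PNPLA2 stood first in the knockdown at 53.3 ± 9.60, followed by PLIN3 at 40.4 ± 9.53 and MGLL at 39.1 ± 1.52 (SD, n = 3). Its range overlapped that of PLIN3, which overlapped that of MGLL. In NC libraries MGLL had 40.7 ± 2.14, PLIN3 40.6 ± 3.73 and PNPLA2 39.9 ± 2.81 FPKM, all with overlapping ranges. PLIN2 came next, at 25.5 ± 3.95 FPKM in knockdown and 30.4 ± 2.50 FPKM in NC libraries, with its knockdown range reaching that of DGAT1. DGAT1 had 18.03 ± 3.79 FPKM in knockdown and 13.04 ± 1.19 FPKM in NC libraries, and HILPDA 13.8 ± 0.529 FPKM in knockdown and 16.5 ± 3.45 FPKM in NC libraries, so that these neighbours overlapped in both groups while the order of their means differed. LIPE followed at 10.7 ± 0.617 FPKM in knockdown and 8.35 ± 0.232 FPKM in NC libraries. ABHD5 had 4.61 ± 1.41 and DGAT2 4.18 ± 0.338 FPKM in the knockdown, overlapping there. In NC libraries ABHD5 had 6.64 ± 1.01 and DGAT2 3.45 ± 0.628 FPKM, without overlap. DGAT1 transcripts thus outnumbered those of DGAT2 per length in every library of both groups. G0S2 was last, at 0.111 ± 0.0989 FPKM in knockdown and 0.145 ± 0.00264 FPKM in NC libraries.

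**Figure D1:**
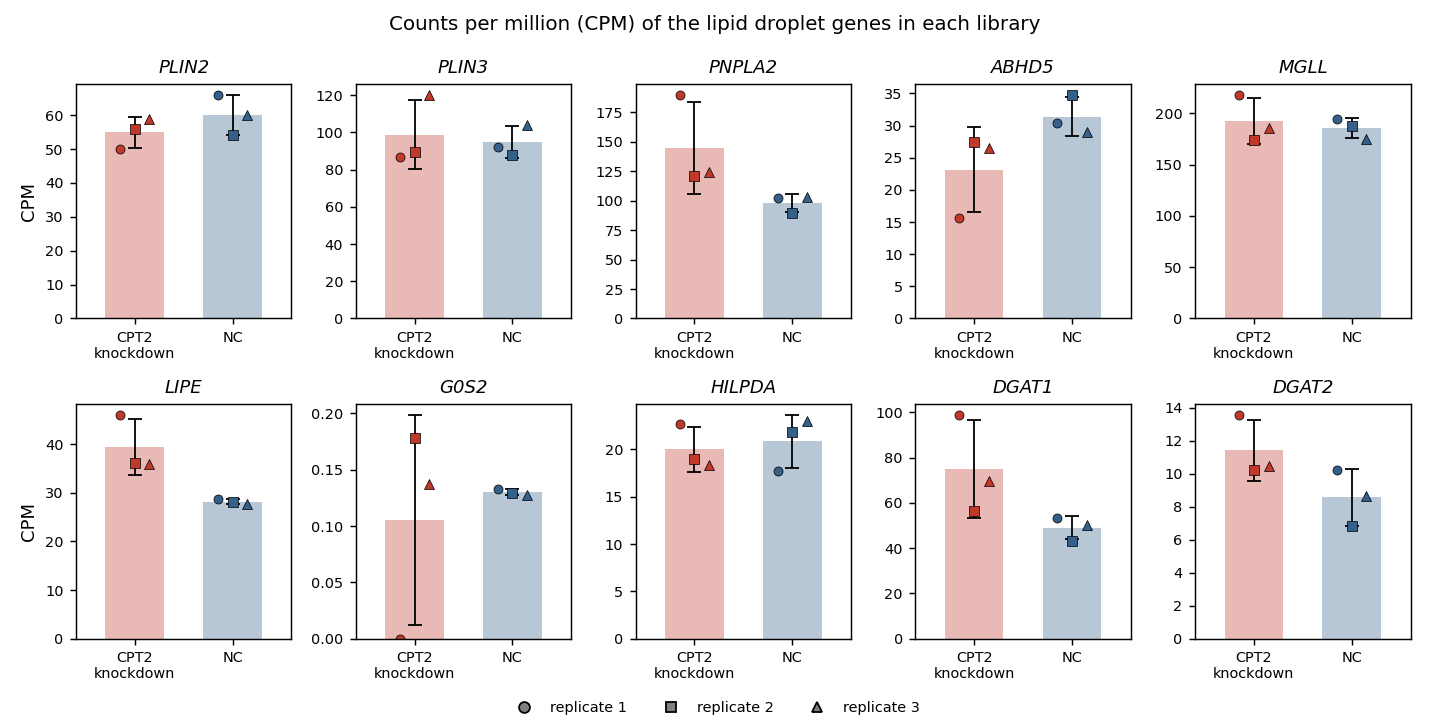
CPM of each of the 10 genes (y axis, linear, its own range per panel) in CPT2 knockdown (left, red) and NC libraries (right, blue). Bars are means, error bars SD over 3 libraries and symbols single libraries by replicate number; PNPLA2, LIPE, DGAT1 and DGAT2 sit higher and ABHD5 lower in all 3 knockdown libraries, and the circle of knockdown replicate 1 lies farthest from NC for these 5 genes.

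The coat genes did not separate the groups. PLIN2 (ENSG00000147872, chromosome 9, 19108375 to 19149290, minus strand) encodes the perilipin of droplets in most cell types. It had 50.0, 55.9 and 58.8 CPM in CPT2 knockdown replicates 1, 2 and 3, against 66.0, 54.3 and 60.1 CPM in NC replicates 1, 2 and 3. The knockdown libraries lay at the lower end, but replicates 2 and 3 were above NC replicate 2. The log2 fold change of PLIN2 was -0.13 (SE 0.15, 95% interval -0.48 to 0.22, edgeR adjusted p = 0.621), an interval that leaves out a fall or a rise by 1 on the log2 scale. With offsets for GC content and length, the PLIN2 log2 fold change was -0.22 (SE 0.10, 95% interval -0.44 to 0.003, edgeR adjusted p = 0.383), and the corrected CPM did not overlap. They were 49.4, 55.6 and 54.4 in knockdown replicates 1, 2 and 3, against 65.9, 58.5 and 61.4 in NC replicates 1, 2 and 3. After the same correction 19.6% of all genes did not overlap between the groups, against 24.4% before it.

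PLIN3 (ENSG00000105355, chromosome 19, 4838341 to 4867768, minus strand) encodes a perilipin that moves between cytosol and nascent droplets. It had 86.7, 89.5 and 120.2 CPM in CPT2 knockdown replicates 1, 2 and 3, against 92.0, 87.6 and 104.2 CPM in NC replicates 1, 2 and 3. The knockdown range contained all NC values. Its log2 fold change was 0.06 (SE 0.17, 95% interval -0.32 to 0.45), and the sign turned without knockdown replicate 3 (-0.10), on library size alone (-0.069), in the authors' FPKM (-0.028) and with GC and length offsets (-0.24). An antisense gene shares 17.8% of the annotated exon bases of PLIN3, and the labels name no strand marking, so reads of either strand cannot be told apart there.

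The lipases of the first and second cleavage steps were higher in all knockdown libraries, and the third was not. PNPLA2 (ENSG00000177666, chromosome 11, 818902 to 825573, plus strand) had 189.8, 121 and 124 CPM in CPT2 knockdown replicates 1, 2 and 3, against 102, 89.2 and 103 CPM in NC replicates 1, 2 and 3. Replicate 1 stood far above the other knockdown libraries, which themselves exceeded every NC library. In the fit PNPLA2 gave a log2 fold change of 0.56 (SE 0.20, 95% interval 0.12 to 1.01, edgeR unadjusted p = 0.0185). Without knockdown replicate 1 it was 0.31, and with GC and length offsets 0.09 (SE 0.10, 95% interval -0.14 to 0.32). The median log2 fold change of all genes in the GC decile of PNPLA2 was 0.48, which is 0.09 below its own.

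LIPE (ENSG00000079435, chromosome 19, 42401507 to 42427426, minus strand) had 46.0, 36.1 and 35.9 CPM in CPT2 knockdown replicates 1, 2 and 3, against 28.7, 28.1 and 27.8 CPM in NC replicates 1, 2 and 3. The NC libraries lay within 1 CPM of each other and below all knockdown libraries. Its log2 fold change was 0.48 (SE 0.17, 95% interval 0.10 to 0.86, edgeR unadjusted p = 0.0185), and 0.34 without knockdown replicate 1. With GC and length offsets it was 0.18 (SE 0.11, 95% interval -0.06 to 0.43), and the corrected CPM of the groups overlapped. In the authors' deposited table LIPE had the smallest p of the 10 genes (unadjusted DESeq2 p = 0.00751), a fold of 1.40 and the class normal. That table classed all 9 members with a p-value as normal, where 4.15% of its tested genes were up or down. LIPE-AS1, an antisense gene, shares 9.60% of the annotated exon bases of LIPE, and an antisense gene shares 10.4% of those of PNPLA2.

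MGLL (ENSG00000074416, chromosome 3, 127689062 to 128052190, minus strand) had 218, 174 and 186 CPM in CPT2 knockdown replicates 1, 2 and 3, against 195, 187 and 175 CPM in NC replicates 1, 2 and 3. The highest and the lowest value were both from the knockdown. In the fit MGLL gave a log2 fold change of 0.05 (SE 0.14, 95% interval -0.26 to 0.37), with a negative sign without knockdown replicate 1 (-0.055), on library size alone (-0.092), in FPKM (-0.058) and with GC and length offsets (-0.11). All genes in the GC decile of MGLL had a median of 0.26.

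As counted, ABHD5 had the lowest fold change of the 9 tested members, whereas with GC and length offsets HILPDA, PLIN3, PLIN2 and MGLL were lower. ABHD5 (ENSG00000011198, chromosome 3, 43690108 to 43734371, plus strand) had 15.6, 27.4 and 26.5 CPM in CPT2 knockdown replicates 1, 2 and 3, against 30.4, 34.8 and 28.95 CPM in NC replicates 1, 2 and 3. Replicate 1 was near 0.5 of the NC mean (-1.01 on the log2 scale), while replicates 2 and 3 were at -0.19 and -0.24. In the fit ABHD5 gave a log2 fold change of -0.44 (SE 0.23, 95% interval -0.97 to 0.09, edgeR unadjusted p = 0.0948), and -0.23 without replicate 1. With GC and length offsets it was -0.004 (SE 0.11, 95% interval -0.25 to 0.24). The median of all genes in its GC decile was -0.41.

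The inhibitors of PNPLA2 gave no separation. HILPDA (ENSG00000135245, chromosome 7, 128455849 to 128458418, plus strand), which is induced by hypoxia and fatty acids, had 22.7, 18.9 and 18.3 CPM in CPT2 knockdown replicates 1, 2 and 3, against 17.7, 21.9 and 22.9 CPM in NC replicates 1, 2 and 3. Each group spanned nearly the same range. Its log2 fold change was -0.06 (SE 0.19, 95% interval -0.48 to 0.36). With GC and length offsets it was -0.26 (SE 0.16, 95% interval -0.61 to 0.09), and -0.33 (SE 0.16) when knockdown replicate 1 was left out as well. Processed transcript genes on the same strand share 8.45% and 8.99% of the annotated exon bases of HILPDA, so reads cannot be told apart there. G0S2 (ENSG00000123689, chromosome 1, 209675420 to 209676388, plus strand) had 0, 5 and 4 counts in CPT2 knockdown replicates 1, 2 and 3, against 4, 4 and 4 counts in NC replicates 1, 2 and 3. A count of 0 in replicate 1 allows up to 3 counts, or 0.119 CPM, by counting error alone. A difference in G0S2 was not detectable at this depth.

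The acyltransferases that complete triglyceride synthesis were the members whose CPM remained higher in all knockdown libraries after correction for GC content and length. For DGAT2 this rested on a margin within counting error. After that correction 9.18% of all genes (1213 of 13207) also had every knockdown library above every NC library. DGAT1 (ENSG00000185000, chromosome 8, 144314584 to 144326910, minus strand) had 98.8, 56.5 and 69.5 CPM in CPT2 knockdown replicates 1, 2 and 3, against 53.5, 43.3 and 50.3 CPM in NC replicates 1, 2 and 3. All knockdown libraries were above all NC libraries, replicate 1 by the widest margin. In the fit DGAT1 gave a log2 fold change of 0.61 (SE 0.22, 95% interval 0.12 to 1.10, edgeR unadjusted p = 0.0204), 0.35 without knockdown replicate 1 and 0.22 with offsets (SE 0.10, 95% interval 0.002 to 0.44, edgeR adjusted p = 0.379). The corrected DGAT1 values were 69.7, 61.5 and 62.3 CPM in knockdown replicates 1, 2 and 3, against 58.4, 53.9 and 53.8 CPM in NC replicates 1, 2 and 3, still without overlap. HSF1 on the other strand shares 3.36% and an antisense-class gene on the same strand 10.7% of the annotated exon bases of DGAT1.

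DGAT2 (ENSG00000062282, chromosome 11, 75759512 to 75801535, plus strand) had 13.6, 10.2 and 10.5 CPM in CPT2 knockdown replicates 1, 2 and 3, against 10.2, 6.81 and 8.65 CPM in NC replicates 1, 2 and 3. Knockdown replicate 2, at 10.24 CPM, exceeded NC replicate 1, at 10.23 CPM, by a margin within counting error. In FPKM knockdown replicate 2 had 3.93 and NC replicate 1 had 4.02, and in raw counts knockdown replicate 2 had 287 of 28353790 and NC replicate 1 had 307 of 29248144, so that on either of these scales DGAT2 overlapped between the groups. In the fit DGAT2 gave a log2 fold change of 0.41 (SE 0.22, 95% interval -0.09 to 0.92, edgeR unadjusted p = 0.0944), and 0.26 without knockdown replicate 1 and 0.27 without NC replicate 2. DGAT2 lay 0.41 above the median of its GC decile, which was 0.003, the widest margin of the 9 tested members. With GC and length offsets it was 0.47 (SE 0.19, 95% interval 0.05 to 0.89, edgeR unadjusted p = 0.0308, adjusted p = 0.366). With these offsets 2 of 9 members, DGAT1 and DGAT2, had an unadjusted p under 0.05, against 13.2% of all genes, and 0 of 9 passed over all genes, where 0.0227% did. After further removal of knockdown replicate 1, an alternative chosen after seeing the data, DGAT2 had 0.34 (SE 0.18) and DGAT1 0.16 (SE 0.10), and 0 of 9 had an unadjusted p under 0.05, against 8.61% of all genes.

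**Figure D2:**
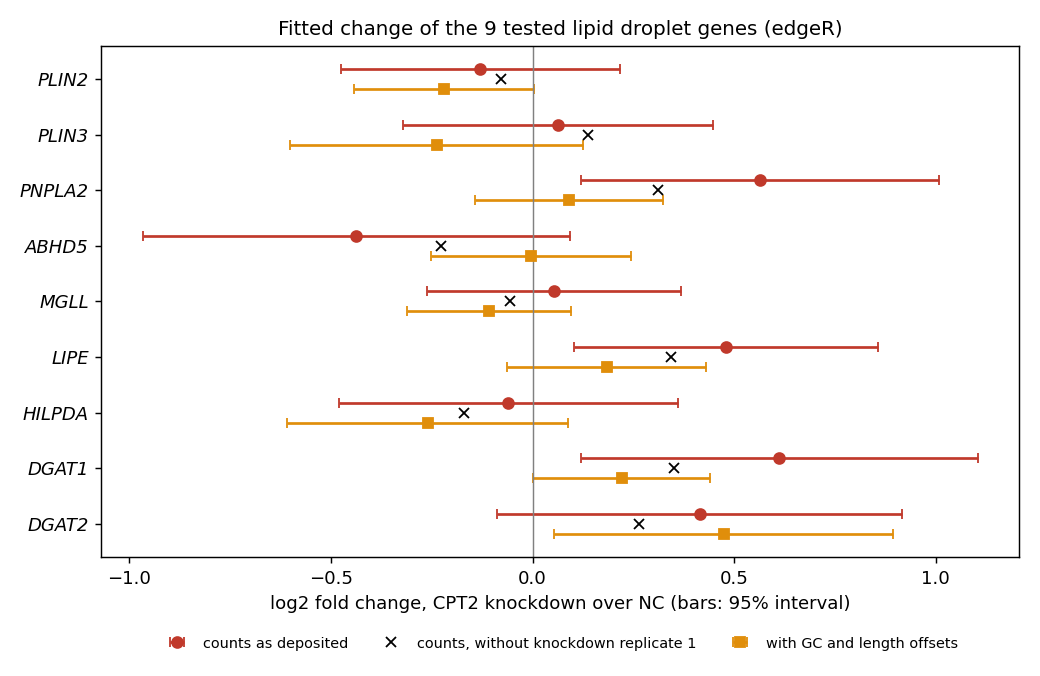
Fitted log2 fold changes (x axis, CPT2 knockdown over NC) of the 9 tested genes from the counts as deposited (red circles), from the counts without knockdown replicate 1 (black crosses) and from a fit with GC and length offsets (orange squares). Bars are 95% intervals; PNPLA2 moves from 0.56 to 0.09 and ABHD5 from -0.44 to -0.004 with offsets, while DGAT2 lies at 0.41 as counted and 0.47 with offsets.

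Exact 2-sided permutation tests of the CPM gave p = 0.1 for PNPLA2, LIPE, DGAT1, DGAT2 and ABHD5, the smallest that 3 against 3 libraries allow, and 0.4 to 1 for the other 5 members. Groups that do not overlap always give this smallest p, so it restates their separation, which 24.4% of all tested genes had. The 9 tested members had a median log2 fold change of 0.06, with 6 positive and 3 negative, beside a median of 0.008 over all genes tested. With GC and length offsets the median was -0.004, with 4 positive and 5 negative, beside -0.006 over all genes. Of the genes in the highest GC decile (62.0% to 74.7%), 34.4% were higher in the knockdown at an unadjusted p of 0.05, and in the next decile, which holds LIPE, 20.7% were. In the lowest decile (30.2% to 38.6%), 0.3% were higher and 10.9% lower. Of the members, PNPLA2 and DGAT1 were in the highest decile, MGLL and PLIN3 in the eighth, PLIN2, HILPDA and DGAT2 in the sixth and ABHD5 in the lowest.

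**Figure D3:**
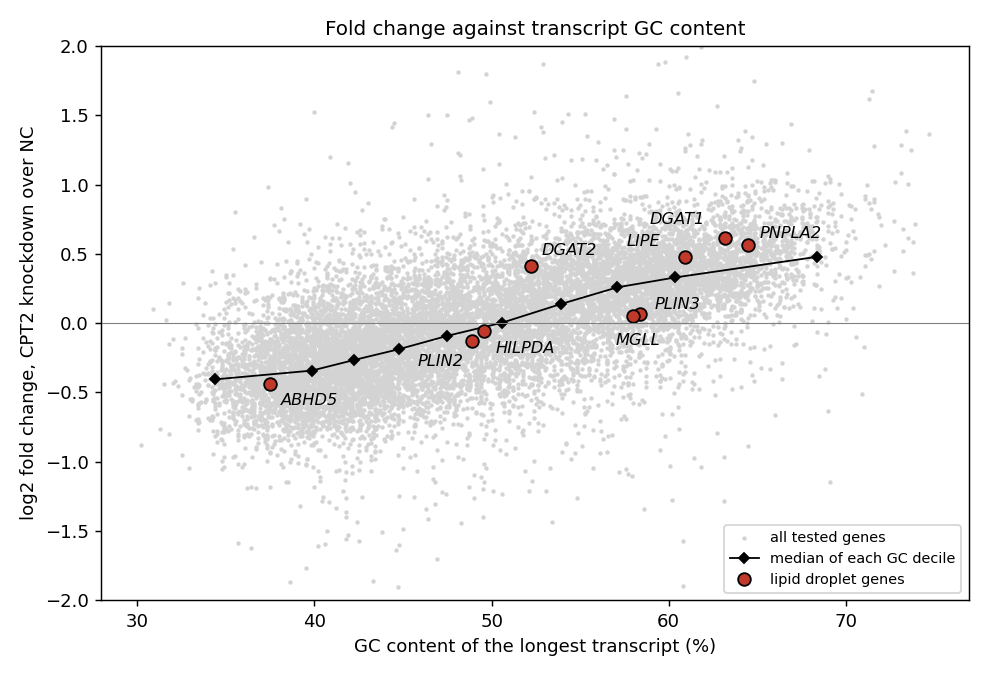
Log2 fold change (y axis, CPT2 knockdown over NC) against the GC content of the longest transcript (x axis, %) for 13207 tested genes (grey), with the median of each GC decile (black diamonds) and the 9 tested droplet genes (red). The decile medians run from -0.41 to 0.48; ABHD5, PNPLA2 and DGAT1 lie near them and DGAT2 lies 0.41 above, and 26 genes fall outside the plotted range of -2 to 2.

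Ratios of members within a library do not depend on the library's scaling, and 5 pairs were compared, chosen after their values were seen. PLIN2 counts per PNPLA2 count were 0.263, 0.463 and 0.474 in CPT2 knockdown replicates 1, 2 and 3, against 0.645, 0.609 and 0.585 in NC replicates 1, 2 and 3, lower in every knockdown library. PNPLA2 per ABHD5 was 12.2, 4.41 and 4.69 in the knockdown replicates and 3.37, 2.56 and 3.55 in the NC replicates, higher in every knockdown library. After correction for GC content and length, both of these ratios overlapped between the groups. LIPE per MGLL was 0.211, 0.207 and 0.194 in the knockdown replicates and 0.147, 0.150 and 0.158 in the NC replicates. The LIPE to MGLL ratio averaged 0.204 ± 0.00916 in the knockdown and 0.152 ± 0.00574 in NC libraries (SD, n = 3 each), and its groups stayed apart after correction. The corrected values were 0.191, 0.2098 and 0.184 in the knockdown replicates and 0.153, 0.163 and 0.162 in the NC replicates. DGAT2 per DGAT1 and PLIN2 per PLIN3 overlapped between the groups as counted. After correction DGAT2 per DGAT1 was 0.197, 0.1699 and 0.174 in the knockdown replicates and 0.1695, 0.122 and 0.161 in the NC replicates, without overlap by a narrow margin, and PLIN2 per PLIN3 still overlapped. Since the pairs were picked on these values, the ratios are given as a description, with no test.

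Other genes of lipid storage were read from lists of the pathway, none of which held a gene called at an adjusted p of 0.05 by edgeR without a replicate block or by DESeq2. Limma-voom with sample quality weights called 8 list genes, where it called 19.0% of all genes. The share among list genes was not taken, so the 8 are not set against that percentage. At an unadjusted p of 0.05, edgeR gave 1 of 3 tested coat genes, 3 of 9 assembly genes, 2 of 12 genes of glycerolipid synthesis, 1 of 6 other lipases, 1 of 3 sterol ester genes and 0 of 8 genes of fatty acid entry, against 14.5% of all genes. Of 6 further coat proteins, 3 were tested, and PLIN1 and CIDEC, the coats of adipocyte droplets, had under 0.5 CPM in each group's mean. CIDEB, a droplet fusion protein, had a log2 fold change of 0.76 (SE 0.32), with overlapping groups, and 0.43 with GC and length offsets. PLIN4, a perilipin of nascent droplets, had 70.0 ± 19.4 CPM in CPT2 knockdown and 54.0 ± 4.86 CPM in NC libraries, with a log2 fold change of 0.38 (SE 0.21) and 0.11 with offsets. Of 9 tested genes of droplet assembly, 3 had a positive and 6 a negative log2 fold change, with a median of -0.25. With offsets 4 were positive and 5 negative, with a median of -0.065. AUP1, a droplet and endoplasmic reticulum protein, had 156 ± 35.9 CPM in the knockdown and 104 ± 8.36 CPM in NC libraries, a log2 fold change of 0.59 (SE 0.18) that was 0.16 with offsets. VPS13C, a lipid transfer protein at droplet contacts, had 16.2 ± 5.25 CPM in the knockdown and 28.2 ± 6.08 CPM in NC libraries, a log2 fold change of -0.80 (SE 0.27) that was -0.28 with offsets.

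The enzymes upstream of the DGAT step were split, with 6 of 12 tested genes positive and 6 negative and a median of -0.07. With GC and length offsets the split was the same and the median 0.03. AGPAT2, which makes phosphatidic acid, had 143 ± 41.5 CPM in CPT2 knockdown and 89.7 ± 14.97 CPM in NC libraries. Its log2 fold change was 0.67 (SE 0.23) as counted and 0.06 with GC and length offsets. LPIN2, a phosphatidate phosphatase that supplies diacylglycerol to DGAT1 and DGAT2, had 78.8 ± 22.6 CPM in the knockdown and 121 ± 11.2 CPM in NC libraries. Its log2 fold change was -0.62 (SE 0.22) as counted and -0.45 with offsets. The other lipins were named after their values were seen. LPIN1 had 24.1 CPM in knockdown and 30.4 CPM in NC libraries, with a log2 fold change of -0.34 (SE 0.20). LPIN3 had 30.8 CPM in knockdown and 21.8 CPM in NC libraries, with a log2 fold change of 0.50 (SE 0.25). The intervals of both included 0, at -0.79 to 0.11 for LPIN1 and -0.065 to 1.06 for LPIN3. LPIN3 overlapped between the groups and LPIN1 did not. Values with offsets are not given for LPIN1 and LPIN3, and a split of the family was not tested. Among 6 other tested lipases, 2 were positive and 4 negative, with a median of -0.10. With offsets 1 was positive and 5 negative, with a median of -0.21. DDHD2, a triglyceride lipase best known from the brain, had -0.54 (SE 0.23) and -0.25 with offsets. LIPA, the acid lipase of lysosomes, had -0.47 (SE 0.25) and -0.33 with offsets. Of the sterol ester genes, SOAT1, which esterifies cholesterol for storage, had -0.44 (SE 0.18) and -0.02 with offsets, and NCEH1, which hydrolyses the esters, had -0.72 (SE 0.39) and -0.44. Of 8 tested genes of fatty acid entry, 5 were positive and 3 negative, with a median of 0.035. With offsets 3 were positive and 5 negative, with a median of -0.04. SLC27A1, a fatty acid transporter, had 0.55 (SE 0.27) and ACSL1, which couples fatty acids to coenzyme A, had -0.35 (SE 0.20). With offsets they had 0.29 and -0.15. The smallest adjusted p of the list genes named here was 0.338 by edgeR.

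**Figure D4:**
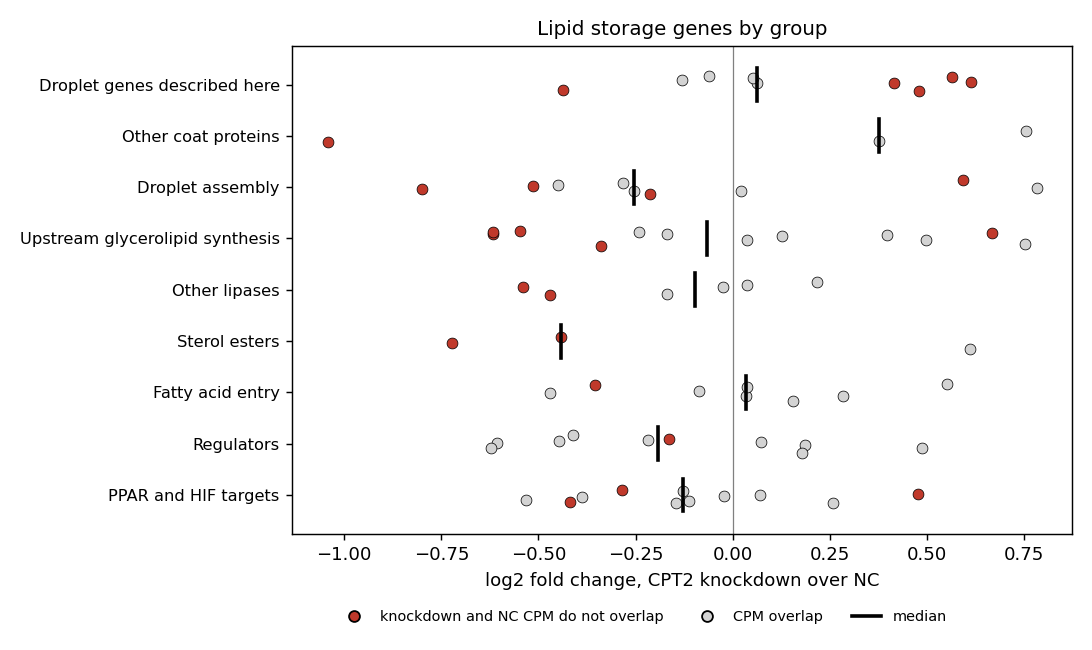
Log2 fold changes (x axis, CPT2 knockdown over NC) of tested genes in each list of lipid storage genes (rows), 1 point per gene, with the list median as a black bar. Red points have CPM that do not overlap between the groups, as do 24.4% of all tested genes. Every list spreads to both sides of 0, and the plotted medians lie between -0.44 (sterol esters) and 0.38 (coat proteins). With GC and length offsets, not plotted, the medians lie between -0.21 (other lipases) and 0.11 (coat proteins), with -0.02 for sterol esters.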

How the data were processed

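Gene-level counts of poly(A) RNA from 6 libraries were used. The table deposited by the authors gives whole-number counts for each gene, not normalized, beside FPKM values whose gene models and library sizes the file headers do not state. It also holds p-values and log2 fold changes that its header credits to DESeq2, as deposited. HISAT2, TopHat2, Bowtie2, StringTie, DESeq2, edgeR and the build GRCh38 appear in the submitters' processing notes with no role stated. After 17 stray lines without gene counts were left out, 24154 genes remained. The 4180 loci without an Ensembl ID, 5.32% to 7.18% of a library's counts, stayed in.

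Counts were fitted over all genes in R 4.3.3 with edgeR 4.0.16 (filterByExpr, TMM, robust quasi-likelihood F-test), p-values were adjusted by Benjamini-Hochberg over 15302 genes, and SE and 95% intervals were derived from its F statistic. CPM used TMM-scaled library sizes. Log2 fold changes are CPT2 knockdown over NC. Transcript length, GC content and coordinates came from GENCODE 29 on GRCh38, the longest transcript standing for a gene, for 13207 tested genes. GC and length offsets were a loess (span 0.3) per library. Alternatives used DESeq2 1.42.0 and limma 3.58.1, with log2(FPKM + 1) for FPKM. Scripts were tested on simulated data. Intervals of counts cover counting error only.

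All members, lists, tests and alternatives were chosen with earlier results of these data known. The text names all members, CPT2, and per list any called gene or else the 2 genes of at least 1 CPM with the smallest p. EPCAM, CDH1, KRT19, VIL1, PTPRC, CD14, COL1A2, DCN, THY1, LPIN1, LPIN3, PLIN1 and CIDEC were named after their values were seen. MALAT1 and NEAT1 are named as not found.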

Additional observations from a re-analysis of the deposited data

How the results depend on the processing

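Over the 18 alternatives, PNPLA2, LIPE, DGAT1 and DGAT2 kept a positive and PLIN2 and ABHD5 a negative log2 fold change, at 0.06 to 0.68, 0.18 to 0.54, 0.16 to 0.78, 0.23 to 0.56, -0.26 to -0.06 and -0.58 to -0.004 in that order. Members called numbered 0 in 17 alternatives and 3 (PNPLA2, LIPE and DGAT1, adjusted p = 0.0419, 0.0325 and 0.0231) by limma-voom with sample quality weights, which called 2915 genes in all (19.0%) and 8 list genes. DESeq2 called 17 genes, limma-trend on FPKM 0 (2055 at an unadjusted p under 0.05), offsets without CPT2 knockdown replicate 1 called 4 genes, with 0 members under an unadjusted p of 0.05, and leaving out 1 library called 1 to 5, with 0 (without NC replicate 2, where 3.23% of all genes had one) to 4 (without knockdown replicate 2, where 35.9% did) members under an unadjusted p of 0.05. PLIN3 turned to -0.069 on library size alone, -0.028 in FPKM, -0.24 with offsets, -0.26 with offsets and the replicate block, -0.06 with offsets without CPT2 knockdown replicate 1, and ran from -0.10 to 0.14 leaving out 1 library. MGLL turned to -0.092, -0.058, -0.108, -0.106 and -0.105 under the same 5 settings, in that order, and ran from -0.055 to 0.12. HILPDA ran from -0.33 to 0.015 over all 18 and from -0.17 to 0.015 leaving out 1 library. Library size alone moved the median of all genes to -0.13. No label pairs the libraries by replicate number. Same-numbered libraries had correlations of deviations of 0.25, 0.36 and 0.007, and 3 of 3 knockdown but 2 of 3 NC libraries correlated best with their own number, so pairing is not established. With the replicate block 633 genes (4.14% of all tested), 4 list genes and 0 members were called. With it 5 members had an unadjusted p under 0.05, where 30.6% of all genes did. With block and offsets 661 genes (5.00% of all tested) and 4 list genes were called. Shares among list genes were not taken for any of these counts. The causes were not tested. Depth limits G0S2, and the separation of DGAT2 between the groups.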

Other observations

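Regulators of droplet genes were measured in all 10 cases listed and none was called by edgeR without a replicate block or by DESeq2, with 1 at an unadjusted edgeR p under 0.05. PPARA, a nuclear receptor for fatty acids, had 11.2 ± 3.70 CPM in CPT2 knockdown and 17.1 ± 2.01 CPM in NC libraries (SD, n = 3 each), a log2 fold change of -0.61 (SE 0.25) and -0.36 with GC and length offsets. EPAS1, the hypoxia-inducible factor HIF-2 alpha, had 234.9 ± 67.1 CPM in the knockdown and 320.1 ± 33.9 CPM in NC libraries, a log2 fold change of -0.45 (SE 0.21) and -0.42 with offsets. Both genes overlapped between the groups. Of 11 tested PPAR and HIF targets, 3 had a positive and 8 a negative log2 fold change, with a median of -0.13. With offsets the split was the same and the median -0.18. CA9, a carbonic anhydrase induced by hypoxia, had 0.48 (SE 0.22) and 0.03 with offsets, and CPT1A, which loads acyl groups onto carnitine, had -0.28 (SE 0.14) and -0.20 with offsets.

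The genes whose CPM ran closest to PNPLA2 over the 6 libraries, by the mean absolute difference of centred log2 CPM among 13587 genes, were LMF1 (0.02), ZC3H3 (0.03) and ENG (0.03). LMF1 had 12.9, 8.03 and 8.47 CPM in CPT2 knockdown replicates 1, 2 and 3, against 7.03, 6.19 and 7.09 CPM in NC replicates 1, 2 and 3, and none of the 3 passed by edgeR (adjusted p = 0.338). Since these genes were picked for CPM that ran like those of PNPLA2, their fold changes and p-values follow from that choice. The part of GC content in this likeness was not tested.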
